A study of Homo sapiens with 24 samples.

Results

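The 32 genes described here encode factors that cut, process and terminate the transcripts of RNA polymerase II. They were chosen by name for these roles: 21 factors of cleavage, polyadenylation and termination and 11 subunits of Integrator. Every probe set whose only gene symbol was one of these names was taken, which gave 110 of the 44988 probe sets that name 1 gene and 32 of 18132 genes. All 32 genes reached the low-intensity limit, an intensity of 12.7, in at least 1 group, and they were tested among 16175 genes. Of their 110 probe sets 102 were tested and the other 8 lay under that limit in every group.

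Cultures of 2 human osteosarcoma lines, U2-OS and SJSA-1, were given the solvent DMSO or THZ2 at 25, 100 or 400 nM, each for 6 h, and total RNA was read on Affymetrix PrimeView arrays. THZ2 is a covalent inhibitor of CDK7, which phosphorylates the tail of RNA polymerase II as part of TFIIH and switches on kinases of the cell cycle. Each of the 8 groups (DMSO, 25, 100 and 400 nM in each line) held 3 arrays, and no further agent or allele is named for any of them. The labels do not say whether the 3 arrays came from separate cultures, so p-values measure only the spread between these arrays, which may be technical.

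Most messenger RNAs are made by cutting the nascent transcript a short way past a polyadenylation signal and adding a poly(A) tail to the new end. The cleavage and polyadenylation specificity factor (CPSF) reads the signal and holds the nuclease, the cleavage stimulation factor (CSTF) binds the sequence beyond the cut, and cleavage factors I and II help to choose the site and to link it to termination. After the cut the polymerase is released with the help of the exonuclease XRN2. Integrator cuts short transcripts instead, such as small nuclear RNAs and RNA of polymerases paused near promoters, and carries a phosphatase. The restrictor, made of ZC3H4 and WDR82, ends transcription that does not yield stable messenger RNA.

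The deposited values are linear intensities. The arrays fall into 3 sets that were normalized apart, as judged from exactly shared values: U2-OS with DMSO, 25 and 100 nM, U2-OS with 400 nM, and all SJSA-1 arrays. Median intensity per array was 33.5 to 34.5, 36.6 to 37.3 and 23.4 to 25.5 in these sets. The dose of 400 nM in U2-OS and its normalization set therefore cannot be told apart, and neither can the line and its set where levels of U2-OS and SJSA-1 are set side by side. The poly-A spike-ins, control RNAs of bacterial genes, had higher group means at 100 and 400 nM than with DMSO in each line. Their mean log2 intensity in U2-OS was 5.42 to 5.43 with DMSO, 5.88 to 5.95 at 100 nM and 5.65 to 6 at 400 nM. The U2-OS group mean was 5.91 at 100 nM and 5.83 at 400 nM. In SJSA-1 the arrays gave 6.40 to 7.18 with DMSO, 7.31 to 7.46 at 100 nM and 7.18 to 8.84 at 400 nM. All changes below are relative to the deposited scaling. In such samples fewer cells of a type and less RNA per cell cannot be told apart. The extraction text of the labels names nervous tissue while the treatment text names the cell lines, so marker lists were read. Of 9 osteoblast-lineage markers on the array 8 reached the limit in each line, all but IBSP. Of 10 nervous-tissue markers 9 did in U2-OS and 6 in SJSA-1, with summed intensities of 705 to 748 with DMSO and 975 to 1082 at 400 nM in U2-OS and of 160.5 to 168 and 208 to 235 in SJSA-1. AQP4 lay under the limit in both lines. Of 6 blood markers 4 and 2 reached it, with PTPRC and LYZ under it in both lines. Of 7 epithelial markers 7 and 6 did, with summed intensities of 2816 to 3698 in U2-OS and 3496 to 5217 in SJSA-1. The part of these markers and of the spike-ins in the changes was not tested.

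Promoter sequence is shown for 3 members whose changes the results turn on. With each gene read by its brightest probe set, ZC3H4 and INTS6 had the largest falls at 100 nM and CPSF6 the largest rise. Each line gives the 250 bases before the start of the gene, 5′ to 3′ on the gene's strand, from RefSeq on GRCh38.p14. Capitals mark GGGCGG or its complement CCGCCC, the core of the GC box.
ZC3H4, chr19:47113777-47114026, minus strand: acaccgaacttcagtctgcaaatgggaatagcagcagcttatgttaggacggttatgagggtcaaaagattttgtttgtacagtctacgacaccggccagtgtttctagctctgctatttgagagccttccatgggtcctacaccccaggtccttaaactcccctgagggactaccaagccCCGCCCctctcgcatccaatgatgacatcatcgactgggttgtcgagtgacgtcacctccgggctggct
INTS6, chr13:51453037-51453286, minus strand: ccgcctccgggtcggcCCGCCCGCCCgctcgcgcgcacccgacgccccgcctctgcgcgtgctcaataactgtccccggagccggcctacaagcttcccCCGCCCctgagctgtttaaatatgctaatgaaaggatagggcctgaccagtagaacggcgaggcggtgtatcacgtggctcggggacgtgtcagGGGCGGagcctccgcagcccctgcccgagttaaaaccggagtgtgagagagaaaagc
CPSF6, chr12:69239319-69239568, plus strand: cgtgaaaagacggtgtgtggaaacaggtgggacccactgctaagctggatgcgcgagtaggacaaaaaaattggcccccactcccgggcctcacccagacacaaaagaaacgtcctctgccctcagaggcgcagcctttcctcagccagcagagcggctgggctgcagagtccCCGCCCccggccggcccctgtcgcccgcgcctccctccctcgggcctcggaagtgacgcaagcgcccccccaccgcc

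GGGCGG on either strand lies 69 bases before the start of ZC3H4 and 77 bases before that of CPSF6. INTS6 holds 4 matches, at 234, 230, 151 and 57 bases before its start, and those at 234 and 230 share bases. The table held such a window for 27 of the 32 members, and not for CPSF1, INTS5, INTS8, INTS9 and INTS10. Of these 27, 18 (66.7%) hold GGGCGG, against 42.6% of 35116 windows of all genes. CCGGAAG, a core of ETS factor sites, is in 8 of 27 (29.6%) against 8.52%. CGCATGC is in CPSF7 and INTS7 (2 of 27, 7.41%, against 3.39%), ATGGCGG in CPSF7 and INTS1 (2 of 27, 7.41%, against 2.88%), and TATAAA in 0 of 27 against 10.7%. The median GC content was 63.2% in the members' windows and 58% in all windows. GGGCGG is present in members that fell and in members that rose, and these matches are a description of the letters only.

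At 100 nM more members fell than rose in each line. A member is said to have fallen, risen or passed where limma's adjusted p over all genes tested was under 0.05. In U2-OS 18 of 32 fell, against 22.2% of all genes tested, and 4 rose (NUDT21, CPSF6, PAPOLA and INTS1), against 19.8%. Without U2-OS DMSO array 2, or without U2-OS 100 nM array 2 or 3, 2 rose. In SJSA-1 19 of 32 fell, against 25.1%, and 4 rose (CPSF1, CSTF3, CPSF6 and PAPOLA), against 24.4%. Without SJSA-1 DMSO array 1, which differed most from the others of its group, 18 fell and 3 rose there. The same 16 genes fell in both lines, namely CPSF3, CPSF4, CSTF1, PCF11, SSU72, PAPOLG, ZC3H4, WDR82, INTS2, INTS3, INTS6, INTS7, INTS8, INTS9, INTS10 and INTS12. CPSF6 and PAPOLA rose in both, and no member was called in opposite directions at this dose. How many of all genes fell in both lines, rose in both or went opposite ways was not counted, so this overlap is a description only. CLP1, CSTF2, INTS4, SYMPK and XRN2 passed in neither line. The median log2 change of the 32 was -0.34 in U2-OS and -0.44 in SJSA-1, beside 0.058 and 0.057 over all genes.

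At 25 nM few members passed in U2-OS and more in SJSA-1. In U2-OS SSU72 alone fell (1 of 32, against 0.0556% of all genes) and 0 rose, against 0.0247%. At an unadjusted limma p under 0.05 there were 3 lower (SSU72, ZC3H4 and INTS6) and 1 higher (WDR33). The share of all genes at that unadjusted threshold was not counted, so these members are listed as a description only. In SJSA-1 8 of 32 fell, against 6.28%, and 2 rose, against 1.97%. The 8 were CPSF2, CPSF3, SSU72, ZC3H4, INTS3, INTS6, INTS7 and INTS9, and the 2 were WDR33 and PAPOLA. Probe sets of SSU72 and of WDR33 passed in both directions there. With the mean over probe sets the calls of WDR33 and PAPOLA were lost. The median log2 change was 0.047 in U2-OS and -0.064 in SJSA-1. The call of SSU72 at 25 nM in U2-OS was lost when any 1 of the 6 arrays compared was left out.

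At 400 nM the counts of falls were 14 of 32 in U2-OS, against 25% of all genes, and 18 of 32 in SJSA-1, against 24.9%. The counts of rises were 7 in U2-OS, against 48.4%, and 5 in SJSA-1, against 41.4%. The median log2 change of the members was -0.15 in U2-OS and -0.39 in SJSA-1, beside 0.15 and 0.10 over all genes. At least 2-fold falls on the log2 scale were found for 8 members in U2-OS, against 6.92% of all genes, and for 10 in SJSA-1, against 8.51%. All 8 of the former, CLP1, CSTF1, FIP1L1, INTS12, INTS6, PAPOLG, WDR82 and ZC3H4, were among the latter. At 100 nM falls of this size were seen in 3 members in U2-OS, against 4.08%, and 8 in SJSA-1, against 6.2%. When arrays were centred on the spike-ins no member rose at any dose in either line, and NUDT21, PAPOLA and INTS1 in U2-OS at 100 nM, CPSF1 and CSTF3 in SJSA-1 at 100 nM, and CPSF1, CPSF6, PAPOLA, INTS1 and INTS4 in SJSA-1 at 400 nM took a negative sign. With that centring 17 members fell in U2-OS at 100 nM, against 18.5% of all genes, and 21 in SJSA-1, against 25.7%.

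**Figure D1:**
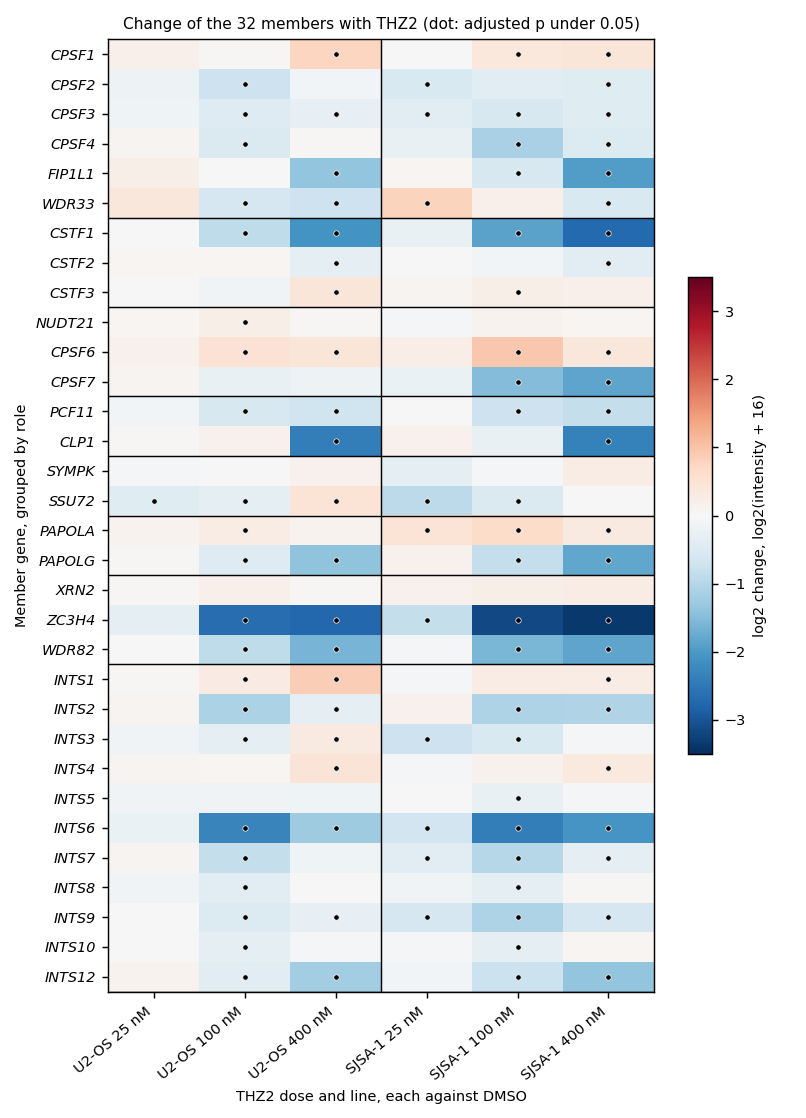
Log2 change of log2(intensity + 16) against DMSO for the 32 members (rows, grouped by role) at 25, 100 and 400 nM in each line (columns); a dot marks an adjusted p under 0.05, and the U2-OS 400 nM column comes from arrays normalized apart. ZC3H4 and INTS6 are the darkest blue at 100 nM in both lines, CPSF6 is red at 100 nM, and CLP1 and FIP1L1 turn blue mainly at 400 nM.

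With each gene read by its probe set of highest mean, ZC3H4, of the restrictor, had the largest fall of the list at 100 nM in each line. The dimmer probe set of ZC3H4 changed less in each line, as given below. This zinc finger protein, which ends transcription outside genes, had intensities in U2-OS of 173, 196 and 183 with DMSO, 153, 142 and 136 at 25 nM, 16.1, 17.6 and 13.5 at 100 nM, and 11.2, 12.9 and 17.5 at 400 nM. In SJSA-1 they were 234, 263 and 240.5 with DMSO, 141, 124 and 129.8 at 25 nM, 12.8, 16.7 and 11.3 at 100 nM, and 7.36, 9.45 and 11.2 at 400 nM. At every dose in each line all 3 treated arrays lay under all 3 DMSO arrays. The mean at 100 nM was 8.54% of DMSO in U2-OS and 5.53% in SJSA-1, with log2 changes of -2.66 ± 0.089 and -3.15 ± 0.089 (SE, n = 3 arrays a group; limma adjusted p = 5.84e-19 and 2.63e-20). At 400 nM in SJSA-1 the mean lay under the low-intensity limit, so the fall is given as at least 19.3-fold (limma adjusted p = 8.5e-21). ZC3H4 also fell at 25 nM in SJSA-1, with a log2 change of -0.83 ± 0.089, while the value of -0.33 ± 0.089 in U2-OS did not pass.

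WDR82, the partner of ZC3H4 that also binds the tail of the polymerase, was among the brightest members. Its intensities in U2-OS were 1326, 1396 and 1374 with DMSO, 1360, 1296 and 1378 at 25 nM, 734, 724 and 733 at 100 nM, and 381, 480 and 427 at 400 nM. The SJSA-1 arrays gave 657, 613 and 617 with DMSO, 584, 617 and 630.3 at 25 nM, 191, 231 and 176 at 100 nM, and 169, 168 and 150.1 at 400 nM. The 100 and 400 nM arrays lay under the DMSO arrays in each line, and the 25 nM arrays overlapped them. The log2 change at 100 nM was -0.89 ± 0.085 in U2-OS and -1.59 ± 0.085 in SJSA-1, where 31.7% of the DMSO mean was left, and at 400 nM it was -1.64 ± 0.085 and -1.86 ± 0.085 (all limma adjusted p at or below 1.04e-09). XRN2, the exonuclease that digests the cut RNA behind the polymerase, passed at no dose in either line with all arrays. It passed in SJSA-1 at 100 nM without DMSO array 1 or 100 nM array 2, and at 400 nM without DMSO array 1 or 400 nM array 2. Its log2 changes ran from 0.048 to 0.25, its means were 794 ± 61 and 903 ± 58.2 in U2-OS and 640.3 ± 145 and 726 ± 90.04 in SJSA-1 with DMSO and 100 nM, and its value at 400 nM in SJSA-1 had an adjusted p of 0.0523.

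**Figure D2:**
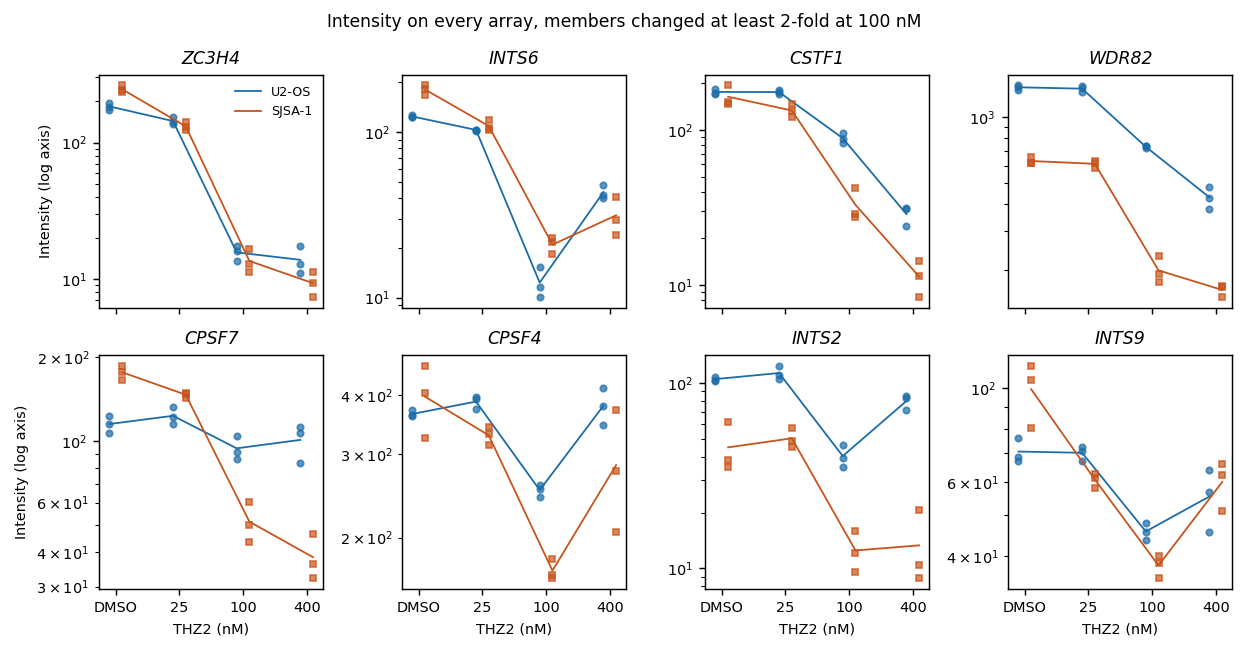
Intensity on every array (log axis) against THZ2 dose for the 8 members with an absolute log2 change of at least 1 at 100 nM in either line; circles are U2-OS, squares SJSA-1, and lines join the means of 3 arrays, and the U2-OS 400 nM arrays were normalized apart. ZC3H4 and INTS6 drop between 25 and 100 nM in both lines, CSTF1 and WDR82 go on dropping to 400 nM, and CPSF4 and INTS9 in both lines and INTS2 in U2-OS are higher at 400 than at 100 nM.

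Integrator is the largest role, with 11 members here. At 100 nM 8 fell in U2-OS and 9 in SJSA-1, beside 22.2% and 25.1% of all genes, with 1 rise in U2-OS (INTS1) and 0 in SJSA-1, beside 19.8% and 24.4%. At 400 nM 4 fell in U2-OS and 5 in SJSA-1, beside 25% and 24.9% of all genes, and 3 and 2 rose, beside 48.4% and 41.4%. The sequence before INTS6 stands above. INTS6, a subunit that joins Integrator to the phosphatase PP2A, had intensities in U2-OS of 123, 128 and 123 with DMSO, 104, 104 and 102 at 25 nM, 15.4, 11.5 and 10.03 at 100 nM, and 41.5, 48.3 and 40.2 at 400 nM. In SJSA-1 the values were 193, 184 and 168 with DMSO, 103, 106 and 118 at 25 nM, 18.2, 22.8 and 21.7 at 100 nM, and 24.1, 29.4 and 40.8 at 400 nM. The treated arrays lay under the DMSO arrays at all 3 doses in each line, and in each line the 100 nM arrays were the lowest. At 100 nM the U2-OS mean was under the low-intensity limit, a fall of at least 9.19-fold, and in SJSA-1 11.5% of DMSO was left, with a log2 change of -2.42 ± 0.098 (limma adjusted p = 2.19e-17).

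INTS2, a subunit of the core of Integrator, had intensities in U2-OS of 104, 103 and 108 with DMSO, 109.9, 124 and 106 at 25 nM, 35.1, 39.6 and 46.2 at 100 nM, and 71.3, 85.1 and 83.3 at 400 nM. The values in SJSA-1 were 61.4, 38.3 and 35.02 with DMSO, 57.3, 48.5 and 44.9 at 25 nM, 12.04, 15.9 and 9.51 at 100 nM, and 8.88, 10.5 and 20.5 at 400 nM. The 100 and 400 nM arrays lay under the DMSO arrays in each line, and the 25 nM arrays did not. The log2 change at 100 nM was -1.11 ± 0.13 in U2-OS and -1.08 ± 0.13 in SJSA-1, where the mean at 100 nM lay just under the low-intensity limit and the fall was at least 3.17-fold. The first SJSA-1 DMSO array was the highest of its group for INTS2. The U2-OS call at 400 nM (log2 -0.34 ± 0.13) was lost without DMSO array 3 or 400 nM array 1 of that line, and with each other scaling, with the mean over probe sets and with a pseudocount of 1.

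INTS9, the partner of the Integrator nuclease, had intensities in U2-OS of 76.2, 68.8 and 67.2 with DMSO, 67.2, 72.4 and 71.1 at 25 nM, 43.7, 47.9 and 45.6 at 100 nM, and 45.5, 63.97 and 56.6 at 400 nM. SJSA-1 intensities were 80.5, 113 and 105 with DMSO, 62.7, 58.1 and 61.4 at 25 nM, 35.5, 39.95 and 38.6 at 100 nM, and 62.2, 66.3 and 51.3 at 400 nM. Every treated SJSA-1 array lay under the 3 DMSO arrays, and in U2-OS this held at 100 and 400 nM. INTS9 fell in SJSA-1 at each dose, with log2 changes of -0.58 ± 0.099, -1.08 ± 0.099 and -0.60 ± 0.099, and in U2-OS with -0.49 ± 0.099 and -0.29 ± 0.099 at 100 and 400 nM. The U2-OS call at 400 nM was lost without DMSO array 1 or 400 nM array 1 of that line, and with arrays centred on the spike-ins.

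Of the other Integrator members, INTS7, of the core, fell at 100 nM to 52.1% of DMSO in U2-OS and 42.3% in SJSA-1, with log2 changes of -0.83 ± 0.079 and -0.98 ± 0.079. INTS12, which has a PHD finger, changed by -0.39 ± 0.10 and -0.76 ± 0.10 at 100 nM and by -1.23 ± 0.10 and -1.38 ± 0.10 at 400 nM. INTS3, which is also part of a complex that binds single-stranded DNA, fell with log2 changes of -0.35 and -0.53 at 100 nM and -0.73 at 25 nM in SJSA-1. With the mean over its probe sets the U2-OS value at 100 nM was 0.025, with the sign turned and a limma adjusted p of 0.797. INTS8 (log2 -0.39 and -0.33) and INTS10 (log2 -0.32 and -0.34) fell at 100 nM in both lines and passed at 400 nM in neither. With quantile scaling these calls of INTS8 and INTS10 at 100 nM were lost in both lines, and with median centring in SJSA-1. The U2-OS call of INTS12 was lost with quantile scaling and that of INTS10 with the spike-ins too, and the SJSA-1 call of INTS7 at 400 nM with median centring or quantile scaling. The SJSA-1 call of INTS8 was also lost without DMSO array 1 or 100 nM array 1. INTS5 fell in SJSA-1 at 100 nM (log2 -0.27, limma adjusted p = 0.0395), and that call was lost without SJSA-1 DMSO array 2 or 3 or without SJSA-1 100 nM array 1, with median centring, quantile scaling or a pseudocount of 64. INTS1, the largest subunit, and INTS4, a scaffold of the nuclease, went the other way at 400 nM. INTS1 rose by 0.86 in U2-OS and 0.27 in SJSA-1, the latter lost without DMSO array 1 or 400 nM array 2, and INTS4 rose by 0.44 and 0.34. INTS1 also rose in U2-OS at 100 nM, by 0.30, a call kept only without 100 nM array 1 among the 6 arrays left out in turn.

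Of the 6 CPSF members 4 fell in U2-OS at 100 nM (CPSF2, CPSF3, CPSF4 and WDR33), beside 22.2% of all genes. In SJSA-1 3 fell (CPSF3, CPSF4 and FIP1L1), beside 25.1%, and 1 rose (CPSF1), beside 24.4%. CPSF4, a zinc finger subunit that binds the polyadenylation signal with WDR33, had intensities in U2-OS of 361, 371 and 362 with DMSO, 396, 374 and 393 at 25 nM, 244, 254 and 259 at 100 nM, and 346, 378 and 415 at 400 nM. In SJSA-1 they were 324, 404 and 461 with DMSO, 342, 313 and 331 at 25 nM, 164, 167 and 179.8 at 100 nM, and 276, 372 and 205 at 400 nM. The 100 nM arrays lay under the DMSO arrays in each line, and the 400 nM arrays overlapped them in each. The log2 change at 100 nM was -0.51 ± 0.13 in U2-OS and -1.14 ± 0.13 in SJSA-1 (limma adjusted p = 0.00217 and 1.91e-08). CPSF4 also passed as a fall at 400 nM in SJSA-1, with a log2 change of -0.48 ± 0.13 (limma adjusted p = 0.00206), and not in U2-OS.

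CPSF3, the nuclease that makes the cut, fell by less but at more doses: log2 -0.46 ± 0.098 and -0.56 ± 0.098 at 100 nM, -0.29 ± 0.098 and -0.43 ± 0.098 at 400 nM, and -0.38 ± 0.098 at 25 nM in SJSA-1. With arrays centred on the spike-ins the U2-OS call of CPSF3 at 400 nM was lost. The calls of CPSF3 and CPSF2 at 25 nM in SJSA-1 were lost without DMSO array 1 or without 25 nM array 2 or 3. The 25 nM call of CPSF2 was also lost with quantile scaling, and its SJSA-1 call at 400 nM with median centring or quantile scaling. CPSF2, the partner of CPSF3, fell in U2-OS at 100 nM (-0.73 ± 0.15), whereas its SJSA-1 value of -0.36 ± 0.15 there had an adjusted p of 0.0524. FIP1L1, which brings in the poly(A) polymerase, had means in SJSA-1 of 384 ± 23.4 with DMSO, 254 ± 22.9 at 100 nM and 86.6 ± 10.3 at 400 nM (SD, n = 3). Its log2 change went from -0.57 at 100 nM to -1.97 at 400 nM there, and from 0.02, which did not pass, to -1.39 in U2-OS. CPSF1, the largest subunit, rose by 0.38 in SJSA-1 at 100 nM and by 0.76 in U2-OS at 400 nM, and the former call was lost without SJSA-1 DMSO array 1.

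Within CSTF the members differed. CSTF1, a WD-repeat subunit, had intensities in U2-OS of 173, 184 and 169 with DMSO, 181, 175 and 169 at 25 nM, 94.7, 87.5 and 82.8 at 100 nM, and 31.2, 24.1 and 30.7 at 400 nM. The SJSA-1 arrays gave 194, 150.1 and 146 with DMSO, 121, 132 and 147 at 25 nM, 27.5, 42.5 and 28.6 at 100 nM, and 11.5, 8.34 and 14.2 at 400 nM. The 100 and 400 nM arrays lay under the DMSO arrays in each line, with the 400 nM arrays under those at 100 nM. The log2 change was -0.88 ± 0.11 and -1.88 ± 0.11 at 100 nM in U2-OS and SJSA-1 and -2.10 ± 0.11 in U2-OS at 400 nM, and in SJSA-1 the fall at 400 nM was at least 12.3-fold (limma adjusted p = 8.48e-18). CSTF2, which binds the sequence past the cut, fell at 400 nM and not at lower doses, with log2 changes of -0.35 and -0.36. With the mean over its probe sets these calls were lost in both lines (limma adjusted p = 0.0531 and 0.0693), and in SJSA-1 also with median centring or quantile scaling. CSTF3, the scaffold of the complex, rose by 0.20 in SJSA-1 at 100 nM and by 0.43 in U2-OS at 400 nM when read by the probe set that was brightest on average, while another of its probe sets went the other way. The SJSA-1 call of CSTF3 at 100 nM was lost without DMSO array 1 or 2 or without 100 nM array 1 or 3 of that line.

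Cleavage factor I held opposite changes. CPSF6 and CPSF7 are alternative larger subunits of this factor, and NUDT21 is its small subunit that binds RNA upstream of the cut. CPSF6, given in full because it had the largest rise at 100 nM, a choice made after its values were seen, had intensities in U2-OS of 536, 584 and 536 with DMSO, 611, 598 and 635 at 25 nM, 801, 790.1 and 762 at 100 nM, and 717, 739 and 776 at 400 nM. In SJSA-1 the values were 596, 425 and 564 with DMSO, 648, 564 and 644 at 25 nM, 996, 969 and 1097 at 100 nM, and 704, 648 and 719 at 400 nM. The 100 and 400 nM arrays lay above the DMSO arrays in each line, with a log2 change at 100 nM of 0.50 ± 0.09 and 0.94 ± 0.09.

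CPSF7 intensities in U2-OS were 107, 123 and 115 with DMSO, 115, 133 and 122 at 25 nM, 86.2, 104 and 91.3 at 100 nM, and 83.5, 107 and 112 at 400 nM. The values in SJSA-1 were 165, 186 and 177 with DMSO, 147, 143 and 149 at 25 nM, 49.9, 60.5 and 43.4 at 100 nM, and 32.2, 46.2 and 36.2 at 400 nM. The SJSA-1 arrays lay under DMSO at each dose, with 29.1% of the mean left at 100 nM and 21.7% at 400 nM. Its log2 change in SJSA-1 was -1.52 ± 0.11 and -1.83 ± 0.11 at these doses, while in U2-OS -0.25 ± 0.11 at 100 nM did not pass (limma adjusted p = 0.0566). NUDT21 rose by 0.19 in U2-OS at 100 nM (limma adjusted p = 0.0183), and the SJSA-1 value of 0.14 did not pass. The U2-OS call of NUDT21 was lost without DMSO array 2 or without 100 nM array 2 or 3.

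Both members of cleavage factor II were lower at 400 nM. PCF11, which links the cut to release of the polymerase, was the dimmest member. Its intensities in U2-OS were 33.6, 36.2 and 35.5 with DMSO, 27.2, 33.9 and 36.02 at 25 nM, 19.5, 20.6 and 16 at 100 nM, and 19.6, 13.6 and 13.8 at 400 nM. SJSA-1 intensities were 31.6, 15.6 and 19.3 with DMSO, 27.5, 13 and 24.9 at 25 nM, 6.54, 7.06 and 6.96 at 100 nM, and 4.99, 4.47 and 5.54 at 400 nM. The 100 and 400 nM arrays lay under the DMSO arrays in each line, although SJSA-1 DMSO array 1 read higher than the other 2. The log2 change at 100 nM was -0.56 ± 0.12 in U2-OS (limma adjusted p = 0.000315), and in SJSA-1, where the 100 and 400 nM means were under the low-intensity limit, the fall was at least 1.66-fold at each dose.

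CLP1, an RNA kinase, is given in full because of its change between 100 and 400 nM, also after its values were seen. Its intensities in U2-OS were 393, 385 and 387 with DMSO, 411, 387 and 412 at 25 nM, 437, 447 and 427 at 100 nM, and 45.3, 66.5 and 68.1 at 400 nM. In SJSA-1 they were 228, 234 and 240.5 with DMSO, 240.5, 272 and 269 at 25 nM, 202, 231 and 158 at 100 nM, and 32, 31.1 and 35.8 at 400 nM. At 100 nM neither line passed (log2 0.16 ± 0.11 and -0.25 ± 0.11), although SJSA-1 did without 100 nM array 2. At 400 nM all arrays lay far under DMSO, with log2 changes of -2.43 ± 0.11 and -2.35 ± 0.11 (limma adjusted p = 4.37e-17 and 8.26e-17).

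SSU72, a phosphatase of the polymerase tail, was lower at low doses and not at the highest. Its intensities in U2-OS were 353, 338 and 349 with DMSO, 260.1, 254 and 252 at 25 nM, 251, 290.2 and 281 at 100 nM, and 454, 509.7 and 492 at 400 nM. The SJSA-1 arrays gave 666, 787 and 729 with DMSO, 365, 393 and 375 at 25 nM, 491, 516 and 498 at 100 nM, and 689.8, 820.3 and 695 at 400 nM. The 25 and 100 nM arrays lay under the DMSO arrays in each line, and at 400 nM the U2-OS arrays lay above DMSO and the SJSA-1 arrays overlapped it. The log2 changes were -0.42 ± 0.08, -0.32 ± 0.08 and 0.47 ± 0.08 in U2-OS and -0.91 ± 0.08, -0.52 ± 0.08 and 0.013 ± 0.08 in SJSA-1 at the rising doses, and the last did not pass. SYMPK, the scaffold of the cleavage machinery, passed at no dose, with log2 changes from -0.34 to 0.25, although in SJSA-1 it passed at 25 nM without DMSO array 1 and at 400 nM without DMSO array 2 or 400 nM array 1 or 3.

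The poly(A) polymerases went opposite ways. PAPOLA, the main nuclear enzyme, was the brightest member with DMSO in both lines, and rose at 100 nM by 0.25 ± 0.072 in U2-OS and 0.64 ± 0.072 in SJSA-1, where it also rose by 0.49 ± 0.072 at 25 nM and 0.31 ± 0.072 at 400 nM. With the mean over its probe sets the calls of PAPOLA were lost in U2-OS at 100 nM and in SJSA-1 at 25 and 400 nM, and the SJSA-1 value at 100 nM was 0.49 (limma adjusted p = 0.00324). PAPOLG, a related enzyme, had intensities in U2-OS of 103, 102 and 97.8 with DMSO, 102, 107 and 105 at 25 nM, 64.8, 81.1 and 64.5 at 100 nM, and 23.2, 31.5 and 28.9 at 400 nM. In SJSA-1 the values were 85.04, 52.7 and 60.5 with DMSO, 77.7, 72 and 74.5 at 25 nM, 24.8, 40.2 and 25.99 at 100 nM, and 6.02, 6.02 and 8.75 at 400 nM. The 100 and 400 nM arrays lay under the DMSO arrays in each line. The log2 change was -0.44 ± 0.12 and -0.82 ± 0.12 at 100 nM and -1.42 ± 0.12 at 400 nM in U2-OS, and in SJSA-1 the fall at 400 nM was at least 5.09-fold (limma adjusted p = 1.09e-13). In U2-OS at 400 nM the probe sets of PAPOLG passed in both directions.

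The SJSA-1 doses share 1 normalization set, so its steps can be compared. From 25 to 100 nM 22 members changed, against 41.6% of all genes, and the same step in U2-OS changed 19, against 48.1%. From 100 to 400 nM in SJSA-1 19 members changed, against 26.6%, of which 8 were higher at 400 nM and 11 lower. That share holds both directions, and the shares of all genes by direction were not counted. The 8 that were higher were CPSF4, SSU72, INTS3, INTS6, INTS7, INTS8, INTS9 and INTS10, so 6 of them were Integrator subunits. Their steps ran from 0.35 ± 0.098 for INTS6 to 0.67 ± 0.079 for INTS7. The 11 were FIP1L1, WDR33, CSTF1, CSTF2, CPSF6, CPSF7, CLP1, PAPOLA, PAPOLG, WDR82 and INTS12. The largest were -2.11 ± 0.11 for CLP1, -1.40 ± 0.098 for FIP1L1 and -1.001 ± 0.12 for PAPOLG. INTS3, INTS5, INTS8, INTS10 and SSU72 fell at 100 nM and passed in neither direction at 400 nM. CPSF3, INTS6, INTS7, INTS9 and ZC3H4 fell at all 3 doses in SJSA-1. When 1 array of the groups compared was left out the calls of CPSF7, CSTF2, WDR82, INTS6 or INTS8 could be lost, and the count of 19 ran from 15 to 21, and with arrays centred on the spike-ins it was 12.

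**Figure D3:**
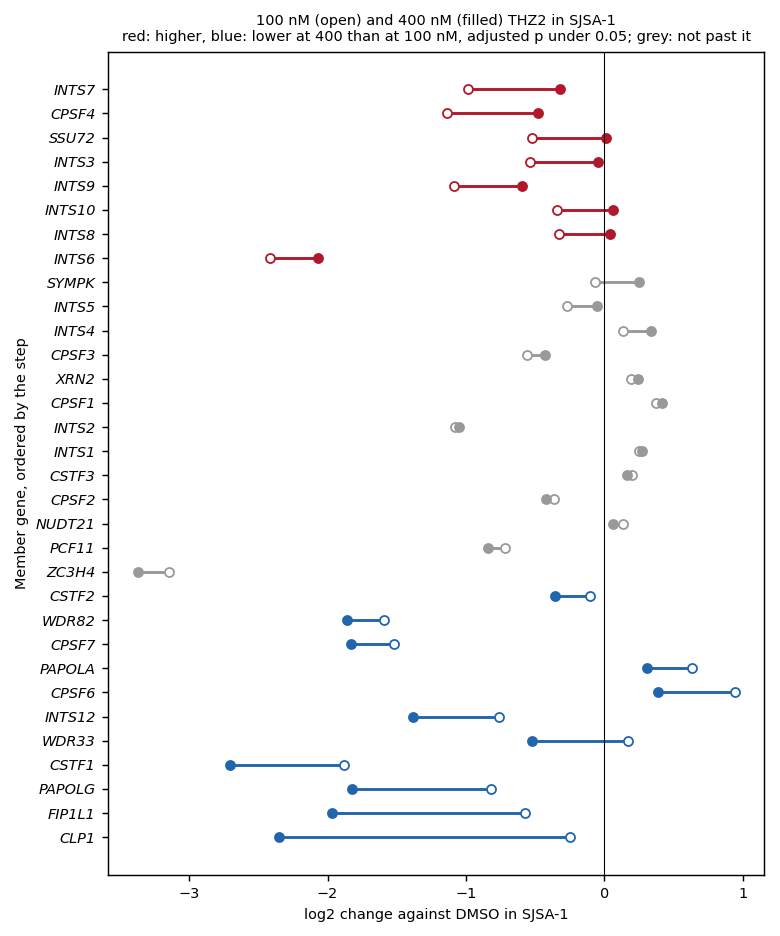
Log2 change against DMSO at 100 nM (open circles) and 400 nM (filled circles) in SJSA-1 for the 32 members, ordered by the step between the doses; red marks members higher and blue members lower at 400 than at 100 nM with an adjusted p under 0.05. The 8 red members include 6 Integrator subunits, and CLP1 has the largest step.

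The response of the 2 lines was compared as the change in SJSA-1 minus that in U2-OS. At 100 nM 10 members differed, against 16.9% of all genes. ZC3H4, WDR82, CSTF1, CPSF4, CPSF7, FIP1L1 and INTS9 fell further in SJSA-1 than in U2-OS or fell there alone. The largest differences of this kind were -1.27 ± 0.15 for CPSF7 and -1.002 ± 0.16 for CSTF1 (limma adjusted p = 4e-07 and 2.73e-05). All these differences are those of a single probe set per gene. CPSF7, CSTF1 and ZC3H4 had probe sets that moved apart in SJSA-1 at this dose, as given below. CPSF6 and PAPOLA rose more in SJSA-1, by 0.45 ± 0.13 and 0.39 ± 0.10. The difference of CPSF6 was lost without SJSA-1 DMSO array 2 and that of CPSF4 without SJSA-1 DMSO array 3. WDR33, as read by its brightest probe set, fell in U2-OS and not in SJSA-1, with a difference of 0.77 ± 0.13. Another of its probe sets, 11721495_a_at, fell in both lines at this dose. For INTS6 the difference of -0.10 ± 0.14 did not pass, with an adjusted p of 0.742.

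At 25 nM 5 members differed, against 1.09% of all genes. They were SSU72, ZC3H4, INTS3, INTS7 and INTS9, and each was lower against DMSO in SJSA-1 than in U2-OS. INTS3 had the largest difference, -0.60 ± 0.12 (limma adjusted p = 0.00811). Without 1 array this count ran from 1 to 6: it was 6 without SJSA-1 DMSO array 1 and 1, 2 or 3 without any other of the 12 arrays, and INTS3 kept its call in each case. The count at 100 nM ran from 10 to 14. With arrays centred on the spike-ins no member differed at either dose.

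**Figure D4:**
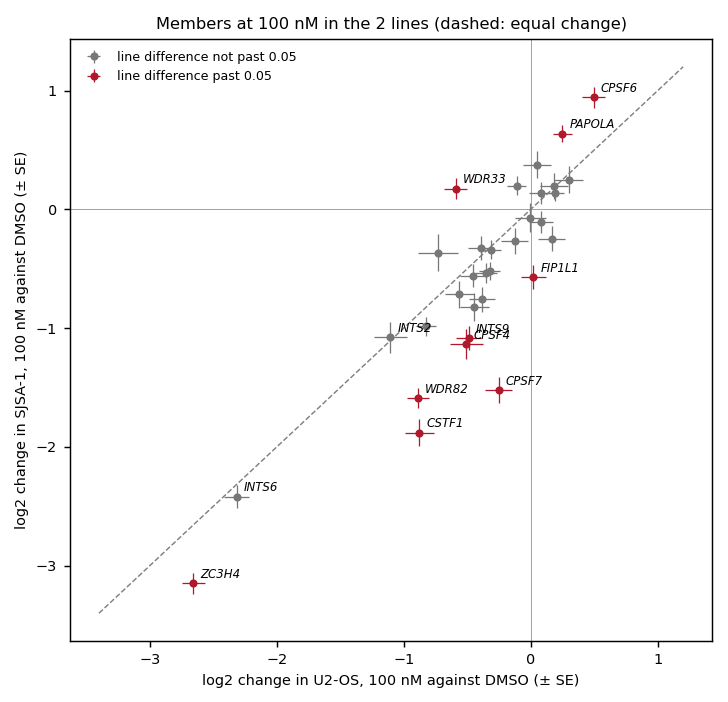
Log2 change at 100 nM against DMSO in U2-OS (x axis) and SJSA-1 (y axis) for the 32 members, with the SE of each as bars; red points are members whose change differed between the lines with an adjusted p under 0.05, and the dashed line marks equal change. CPSF7, CSTF1 and WDR82 lie under the dashed line, and INTS6 and INTS2 lie close to it.

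Several members have probe sets that moved apart, which was examined after the values were seen. Of the 25 members with more than 1 tested probe set, 5 in U2-OS and 6 in SJSA-1 held at 100 nM a probe set that differed from the other probe sets of its gene by at least 2-fold (limma diffSplice, adjusted p under 0.05). This was true of 4.39% and 5.41% of the 9903 genes with more than 1 tested probe set. Such members had 3.8 probe sets on average and all such genes 3.2, with a median of 3 in each. CSTF3, INTS6, WDR33 and ZC3H4 were split in both lines, INTS2 in U2-OS alone and CSTF1 and CPSF7 in SJSA-1 alone. For the difference between the lines at 100 nM itself, CSTF1 alone of these 25 members held such a probe set, against 1.26% of the 9903 genes. At 400 nM 6 members were split in U2-OS, against 8.89% of such genes, namely CSTF1, CSTF3, FIP1L1, PAPOLG, WDR82 and ZC3H4. In SJSA-1 8 were, against 5.77%, namely CPSF7, CSTF1, CSTF3, FIP1L1, INTS6, PAPOLG, WDR33 and ZC3H4. The falls given above for these members are those of 1 probe set each. Which stretch of a transcript each probe set reads is not used here.

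CSTF3 had the widest split. Its probe set 11717642_a_at had intensities in U2-OS of 622, 623 and 589 with DMSO, 386, 395 and 400.4 at 25 nM, 43.7, 45.8 and 43.6 at 100 nM, and 131, 151 and 110.5 at 400 nM. The values in SJSA-1 were 383, 300.2 and 269 with DMSO, 72, 72.5 and 73.01 at 25 nM, 17.4, 30.5 and 36.2 at 100 nM, and 104, 119 and 102 at 400 nM. The treated arrays lay under the DMSO arrays at each dose in each line, with the lowest values at 100 nM. Against DMSO it changed by -3.38 ± 0.13 in U2-OS and -2.93 ± 0.13 in SJSA-1 at 100 nM, and by -1.90 ± 0.13 at 25 nM in SJSA-1. The other 4 probe sets of CSTF3 changed by -0.15 to -0.11 in U2-OS and by 0.20 to 0.29 in SJSA-1 at 100 nM. The difference between 11717642_a_at and these was -3.25 in U2-OS and -3.15 in SJSA-1 on the log2 scale. The rise of CSTF3 given above is that of 11727579_s_at, on average the brightest probe set, and the mean over the gene's probe sets took the opposite sign in SJSA-1 at 100 nM.

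WDR33 and CSTF1 showed the same kind of difference. For WDR33 probe set 11721495_a_at changed by -1.62 ± 0.099 in U2-OS and -1.78 ± 0.099 in SJSA-1 at 100 nM, and its means in SJSA-1 were 94.9 ± 9.15 with DMSO and 16.4 ± 2.92 at 100 nM (SD, n = 3). Probe set 11722265_a_at, which stands for the gene above, changed by -0.59 ± 0.092 and 0.17 ± 0.092, and the latter did not pass. For CSTF1 probe set 11739099_a_at had means in SJSA-1 of 45.7 ± 4.97 with DMSO, 48.3 ± 10.5 at 100 nM and 45.4 ± 5.74 at 400 nM, and passed at no dose, while 11741029_x_at and 11739100_a_at fell, with log2 changes of -1.88 and -1.84 at 100 nM.

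The 2 members with the largest falls were split as well. For ZC3H4 the dimmer probe set 11763587_a_at changed by -0.17 ± 0.14 in U2-OS, which did not pass (limma adjusted p = 0.35), and by -1.29 ± 0.14 in SJSA-1, beside -2.66 and -3.15 for 11724666_at. Of the 7 tested probe sets of INTS6, 11754834_x_at, 11727521_s_at, 11727520_a_at and 11752061_x_at fell at 100 nM in both lines, with log2 changes from -2.32 to -0.36 in U2-OS, and 11751761_a_at and 11746392_s_at fell in SJSA-1 alone. Probe set 11734299_at of INTS6 rose by 0.56 ± 0.065 and 0.50 ± 0.065 from DMSO means of 16.9 ± 0.98 and 4.80 ± 0.77, the latter under the low-intensity limit. For SSU72 in SJSA-1 at 100 nM 11745541_a_at, 11741213_a_at and 11741214_x_at fell, with log2 changes of -0.52, -0.36 and -0.34, while 11763451_s_at and 11760117_x_at rose by 0.62 and 0.52. With the mean over all its probe sets the SJSA-1 change of SSU72 at 100 nM was 0.012 on the log2 scale and did not pass, and its U2-OS call was lost as well. Over all 102 tested member probe sets 35 fell and 17 rose at 100 nM in U2-OS, beside 18.9% and 17.6% of all 37944 tested probe sets. In SJSA-1 48 fell and 25 rose, beside 22.5% and 25.2%.

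**Figure D5:**
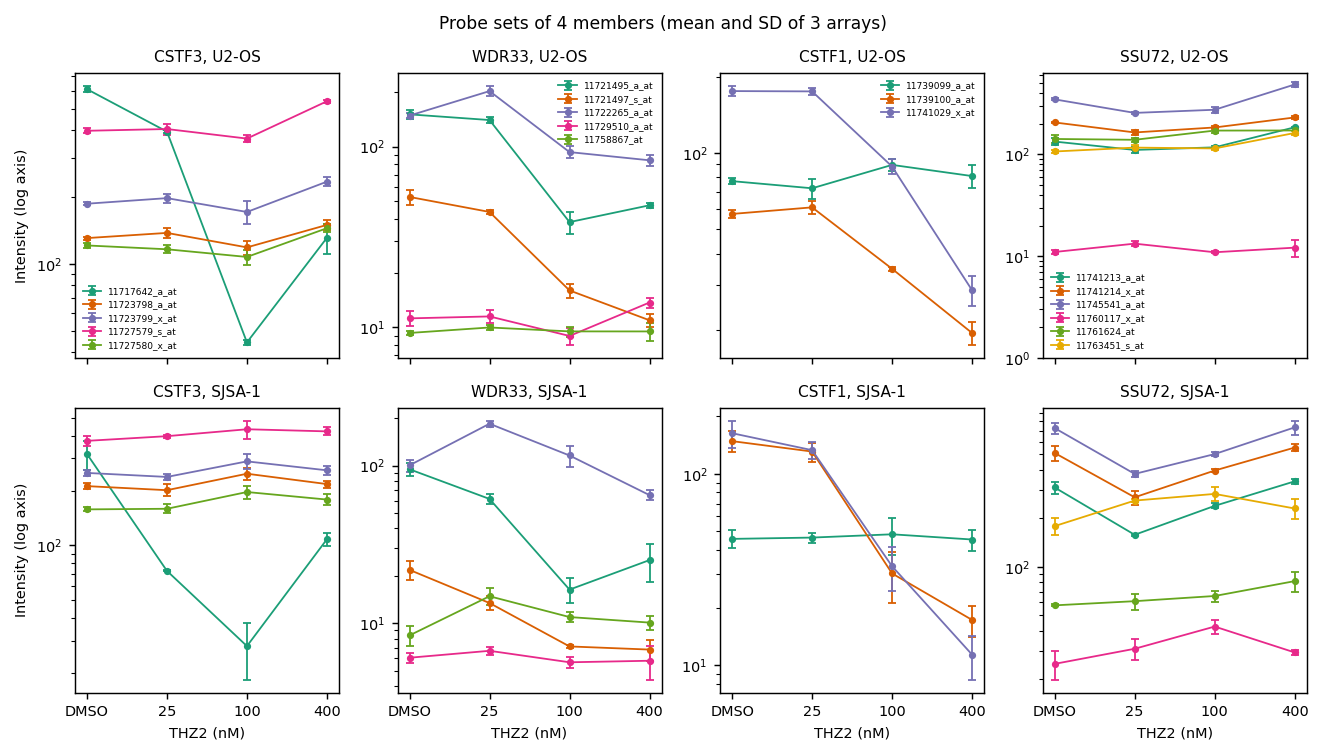
Mean intensity with SD of 3 arrays (log axis) against THZ2 dose for each probe set of CSTF3, WDR33, CSTF1 and SSU72 that reached the low-intensity limit, U2-OS above and SJSA-1 below; the U2-OS 400 nM arrays were normalized apart. In CSTF3 probe set 11717642_a_at falls away from the other 4 and is lowest at 100 nM, and in CSTF1 probe set 11739099_a_at stays level while the others drop.

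A list of 45 other genes of these pathways was read in the same way, and 44 were tested. At 100 nM 18 fell and 8 rose in U2-OS, beside 22.2% and 19.8% of all genes, and 21 fell and 8 rose in SJSA-1, beside 25.1% and 24.4%. Their median log2 changes were -0.18 and -0.19, beside 0.058 and 0.057 over all genes. All 5 genes that process the ends of histone transcripts fell in SJSA-1 and 4 in U2-OS. Among them CASP8AP2 had log2 changes of -1.82 ± 0.12 in U2-OS and -1.46 ± 0.12 in SJSA-1. Of 5 genes of the nuclear exosome and its adaptors, which degrade nuclear RNA, 3 fell in U2-OS and 4 in SJSA-1, with log2 changes of -1.73 ± 0.087 and -1.99 ± 0.087 for EXOSC3. Of 11 Integrator subunits and partners outside the 32, 3 fell and 2 rose in each line. NABP1, which binds single-stranded DNA together with INTS3, had the largest change of these, -2.03 ± 0.089 and -2.79 ± 0.089, and NABP2, its close relative, rose by 0.28 ± 0.10 and 0.33 ± 0.10. Of 9 further cleavage and polyadenylation genes 2 fell and 1 rose in U2-OS, and 4 fell and 2 rose in SJSA-1. CSTF2T, a close relative of CSTF2, changed by -1.13 ± 0.12 and -1.85 ± 0.12, and PABPN1, which binds the poly(A) tail in the nucleus, rose by 0.89 ± 0.12 and 0.93 ± 0.12. Of 14 further genes of termination and the polymerase tail 6 fell and 5 rose in U2-OS, and 5 fell and 4 rose in SJSA-1, with SCAF4, which binds that tail, and RPAP2, a phosphatase of it, lower in both lines.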

How the data were processed

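RNA of 2 osteosarcoma lines was measured on 24 Affymetrix PrimeView arrays. The values used are linear intensities that the authors deposited; MAS5 and RMA are named, without versions or roles, per the submitters' processing notes, and the genome build is not given in the sources used here. Of 49372 probe sets, 79 were controls, 44988 named 1 gene, 1832 several and 2473 none. Only those with 1 gene were used, and each gene was read by the probe set with its highest mean.

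Genes whose highest group mean reached the 30th percentile of the intensities of all probe sets on all arrays, 12.7, were tested with limma 3.58.1 in R 4.3.3. Group means of log2(intensity + 16) for the 8 groups were fitted to all 24 arrays (lmFit, eBayes with a trend, 16 residual df). P-values were adjusted by Benjamini-Hochberg over the 16175 genes within each comparison, with a threshold of 0.05. A fold change on this scale understates that of dim genes. Where a group mean lay under the limit, a fall was given as at least the DMSO mean over the treated mean, with each treated array under the limit set to the limit (means of log2 values). Probe sets of a gene were compared with limma's diffSplice. Both scripts were tested on simulated data. The smallest two-sided p of an exact permutation test of 3 against 3 arrays is 0.1, so none was run.

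Values in every array are given for members with an absolute log2 change of at least 1 at 100 nM in either line and for the member with the largest change of each role. Of the other pathway genes at most the 2 largest changes in each direction of each group of genes were named, ordered by the larger change of the lines. The members, gene lists and tests were chosen with earlier results of these data known. The alternatives were other centring, quantile scaling, other pseudocounts and limits, the mean over probe sets, 1 line alone, no trend, a replicate block and leaving out each array. The number of arrays limits the precision. Gene names are those of the platform annotation.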

Additional observations from a re-analysis of the deposited data

Results flagged for a closer look

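The change of 5 members at 25 nM and of 10 at 100 nM differed between the lines by limma's test of the difference itself (adjusted p under 0.05). Each value is the log2 change in SJSA-1 minus that in U2-OS, with 3 arrays a group. At 25 nM it was -0.50 for SSU72, -0.50 for ZC3H4, -0.60 for INTS3, -0.47 for INTS7 and -0.57 for INTS9. At 100 nM it was -1.27 for CPSF7, -1.002 for CSTF1, -0.70 for WDR82, -0.63 for CPSF4, -0.60 for INTS9, -0.59 for FIP1L1 and -0.49 for ZC3H4. It was above 0 at 100 nM for WDR33 (0.77), CPSF6 (0.45) and PAPOLA (0.39). Another probe set of WDR33, 11721495_a_at, fell in both lines at that dose. CPSF7, CSTF1 and ZC3H4 also had probe sets that moved apart in SJSA-1 at 100 nM, and the values here are those of a single probe set per gene. ZC3H4 and INTS9 differed at both doses. The lines were normalized apart. With quantile scaling of all arrays together 1 member differed at 25 nM and 8 at 100 nM, and with arrays centred on the spike-ins 0 did at each dose.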

How the results depend on the processing

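For the called changes of the 11 members given by array and of 1 CSTF3 probe set, 769 values under the alternatives kept their direction and side of the threshold, 25 lost the call and 1 turned, SSU72 in SJSA-1 at 100 nM, which was 0.012 with the mean over probe sets. Over all 32 members, 10 settings and 6 comparisons with DMSO, leaving out no array, the sign of a called change turned in 14 of 1000 cases and the call was lost in 62. Of the 14, 10 came with the spike-ins, in the members named in the report, and 4 with the mean over probe sets: INTS3 in U2-OS at 100 nM, CSTF3 in U2-OS at 400 nM, and CSTF3 and SSU72 in SJSA-1 at 100 nM. Of the counts 280 stayed within 1.5 times and 49 moved.
With arrays centred on the spike-ins all genes had a median change at 100 nM of -0.30 (U2-OS) and -0.39 (SJSA-1) on the log2 scale, instead of 0.058 and 0.057. No member rose then at any dose (0). The falls were 0 at 25 nM in both lines and 32 in SJSA-1 at 400 nM, beside 91.2% of all genes, the SJSA-1 step from 100 to 400 nM had 12, and the differences between lines had 0 at 25 nM and 0 at 100 nM. With median centring 9 rose in SJSA-1 at 100 nM and 12 at 400 nM, beside 63.7% and 66.3% of all genes. With quantile scaling 7 rose in U2-OS at 100 nM (all genes 29.4%), 8 and 9 in SJSA-1 at 100 and 400 nM (31.7% and 41.8%), 1 rose in U2-OS at 25 nM and 1 differed between lines at 25 nM. The cause of these moves was not tested.
With the mean over probe sets the counts were 0 fallen in U2-OS at 25 nM, 0 risen in SJSA-1 at 25 nM and 3 differing between lines at 25 nM. With a pseudocount of 1, 0 fell in U2-OS at 25 nM and 2 differed between lines at 25 nM. With a pseudocount of 64, 2 fell and 1 rose in U2-OS at 25 nM, and 3 members were split in U2-OS at 100 nM. Without the trend 1 rose in U2-OS at 25 nM. With 1 line alone 1 rose in U2-OS and 5 fell in SJSA-1 at 25 nM.
Leaving out 1 array gave 0 to 0 fallen in U2-OS at 25 nM, 2 to 4 risen in U2-OS at 100 nM and 1 to 6 differing between lines at 25 nM. At 100 nM it gave 18 to 19 fallen members in U2-OS and 17 to 20 for SJSA-1.
Same-numbered arrays deviated together only in part, with correlations of -0.0999 to 0.30 in U2-OS and -0.626 to 0.444 in SJSA-1 (means 0.105 and 0.022). Arrays of different numbers gave -0.251 to 0.174 and -0.618 to 0.597 (means -0.0517 and -0.0105). Whether the numbers pair the arrays cannot be told from these values. With the replicate block 19 members fell and 4 rose in U2-OS at 100 nM, and 20 fell and 5 rose in SJSA-1.
The limits are 3 arrays a group of unstated independence, separate normalization of U2-OS at 400 nM and of the lines, and dim members: PCF11, INTS2, INTS6, PAPOLG, CSTF1 and ZC3H4 have a group mean under the limit and only a bound there.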
